A study of Mus musculus with 11 samples.

Results

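Nuclear hormone receptors are transcription factors whose activity is set by small lipophilic molecules, and they are the proteins through which many endocrine disruptors act. The 45 members described here are the genes of the mouse nuclear receptor superfamily that were listed by symbol and matched to the GENCODE annotation, of 53801 genes in the tables. They fall into 8 groups, the steroid receptors (5 genes), the estrogen-related orphan receptors (3), the thyroid hormone, retinoid and vitamin D receptors (9), the lipid and xenobiotic sensors (8), the clock receptors (4), the NR2 orphan receptors (8), the NR4A immediate early receptors (3) and the NR5, NR6 and NR0 orphan receptors (5).

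RNA was sequenced from 11 cultures of neural stem cells (NSCs) derived from the mouse hippocampus. Treatment was 1 µM 4HBP or its vehicle ethanol (EtOH) over 7 days. The compound is 4-hydroxybenzophenone in the methods of the study, while the sample labels give 4-hydroxybenzoic acid. Proliferation medium (3 EtOH and 3 4HBP libraries) holds the growth factors EGF and bFGF, each at 20 ng/ml, and 1% B27 supplement, and differentiation medium (2 EtOH and 3 4HBP libraries) holds 2% B27 and neither growth factor. B27 commonly supplies a retinyl ester, corticosterone, progesterone and triiodothyronine, so cultures of both treatments may have met these receptor ligands. No source used here states that the replicates came from separate litters or isolations, so the p-values measure the spread between these cultures. The aim of the comparison was to see, from RNA, which receptors the compound could meet in each medium, and which of them changed with it. Receptor protein and binding of the compound were not measured in these data, so present refers to the transcript.

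Nuclear receptors are modular, with a zinc-finger DNA-binding domain and, in most of them, a ligand pocket. Steroid receptors wait on chaperones and bind DNA as homodimers. The thyroid hormone, retinoic acid, vitamin D, PPAR and LXR receptors bind as heterodimers with a retinoid X receptor (RXR), and without ligand several of them hold corepressors on their targets. In neural stem cells the orphan receptor Nr2e1 (TLX) is known for keeping NSCs dividing, thyroid hormone and retinoic acid for driving their maturation, and the NR4A genes for rapid induction by calcium, cAMP and stress signals.

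Library totals were 20822921 to 23438463 expected counts, the fragments that RSEM assigned to genes. Levels of different genes are compared in TPM, which is corrected for transcript length, and a gene is compared between libraries in normalized CPM, its count relative to the library total scaled by TMM factors. A receptor was taken as present in a medium at 1 TPM or more in each of its libraries. A count of 3, or 0.128 to 0.144 CPM, was taken as the smallest amount this depth can show, which covers counting error only. NSC, astrocyte, oligodendrocyte lineage and neuron markers were measured in all 11 libraries, whereas the summed TPM of the 8 microglia markers was 1.27 to 2.82, that of the 6 endothelial markers 1.19 to 4.26 and that of the 6 mesenchymal markers 0.2 to 0.59 in proliferation and 9.11 to 10.45 in differentiation medium. The proliferation library of 4HBP replicate 3 lay far from its group. Its counts differed from those of replicates 1 and 2 by a chi-square of 24 and 21.7 per gene, while replicates 1 and 2 differed by 5.38. The mitochondrial mt-Atp8 took 13.0% to 15.9% of the TPM in proliferation and 4.48% to 4.79% in differentiation medium. TPM was therefore not used for tests between media. The 2 units can give changes of different size. Mean Nr3c1 of the EtOH libraries was 21.1 TPM in proliferation and 33.8 TPM in differentiation medium, against 91.4 and 98.6 normalized CPM. The cause was not tested. TPM levels and counts of present receptors set side by side are not a measure of change between media.

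Of the 45 receptors, 23 were present in proliferation medium and 26 in differentiation medium. At least 10 TPM in every library was reached by 11 receptors in proliferation medium and by 13 in differentiation medium. In contrast, 10 receptors were at or under 3 counts in all 11 libraries, namely Esr1, Esr2, Nr1h4, Nr1i2, Nr2e3, Nr5a1, Nr0b1, Nr0b2, Hnf4a and Hnf4g. Of these, Nr2e3, Nr0b2, Hnf4a and Hnf4g were at 0 counts in every library. The plot of TPM by library shows the receptors present in either medium.

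**Figure D1:**
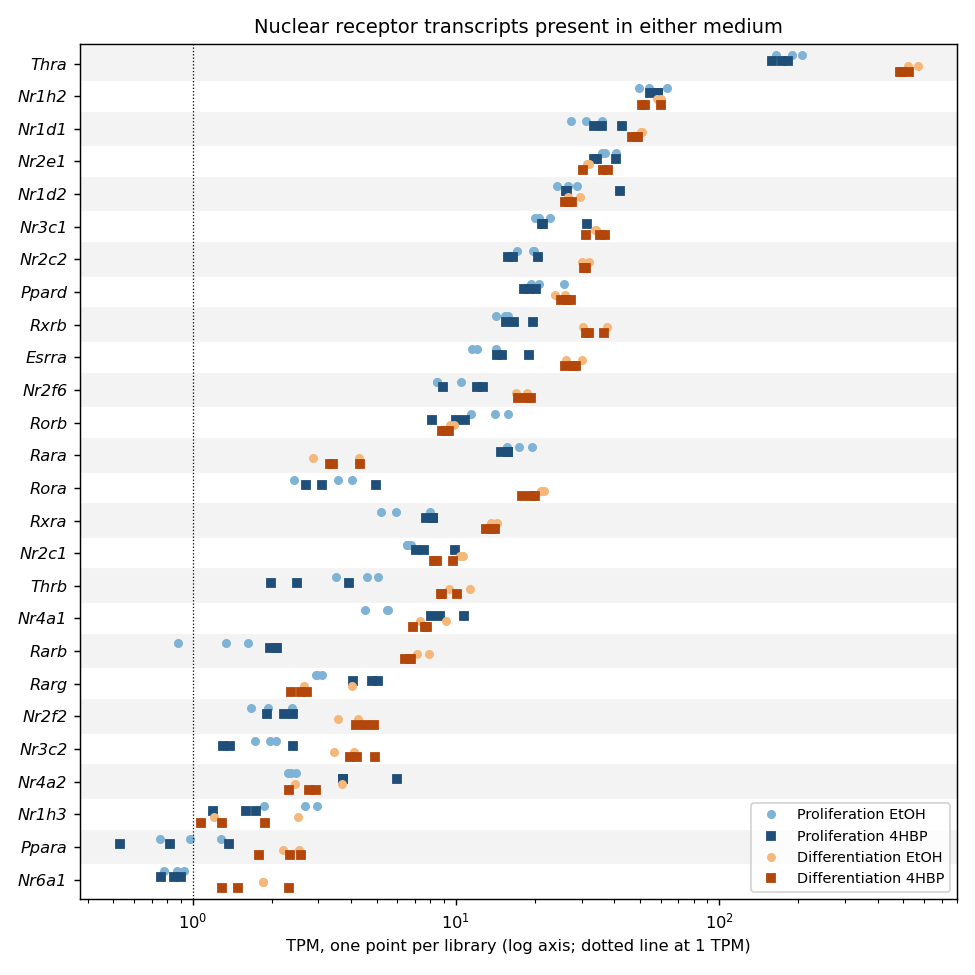
TPM of each receptor that was present in either medium (rows, ordered by mean TPM of the EtOH libraries), one point per library on a log axis, with circles for EtOH and squares for 4HBP. Thra lay at 158 to 206 TPM in proliferation medium and 487 to 567 TPM in differentiation medium, above every other receptor.

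The receptor with the highest level was Thra, which encodes thyroid hormone receptor alpha. It stood at 165 to 206 TPM in the EtOH libraries of proliferation medium (mean 186.7 ± 20.5, SD, n = 3) and at 522 to 567 TPM in those of differentiation medium (544.5 ± 31.3, SD, n = 2). The next receptor in both media was Nr1h2 (LXR beta, an oxysterol sensor), at 55.8 ± 7.12 and 59.0 ± 1.38 TPM, and the ranges of Thra and Nr1h2 did not overlap. In proliferation medium, Nr2e1 (37.8 TPM), Nr1d1 (31.4 TPM), Nr1d2 (26.6 TPM), Ppard (21.9 TPM) and Nr3c1 (21.1 TPM) followed as means, each overlapping the next in range, and then Nr2c2 (18.8 TPM), Rara (17.6 TPM) and Rxrb (15.1 TPM), again each overlapping the next. In differentiation medium, the order after Nr1h2 was Nr1d1 (50.7 TPM), Rxrb (34.0 TPM), Nr3c1 (33.8 TPM), Nr2e1 (31.8 TPM), Nr2c2 (31.1 TPM), Esrra (28.2 TPM), Nr1d2 (28.1 TPM) and Ppard (24.9 TPM). There, Nr1d1 stood clear of Rxrb, while Rxrb and Nr3c1, and Nr2e1, Nr2c2, Esrra and Nr1d2, were neighbours whose ranges overlapped. These levels come from 2 or 3 libraries a group and are per gene, so they do not separate the transcript forms of a gene. The exons of Thra overlap those of Nr1d1 on the opposite strand over 5.7% of their length.

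Among the steroid receptors, the glucocorticoid receptor Nr3c1 and the mineralocorticoid receptor Nr3c2 were present in both media, and the classical sex steroid receptors were at the limit of detection. Nr3c1 stood at 20.0 to 31.6 TPM in proliferation and 31.3 to 36.9 TPM in differentiation medium. Nr3c2 was lower, at 1.31 to 2.41 and 3.44 to 4.91 TPM. Esr1 (estrogen receptor alpha) had 0 counts in 5 of the 6 proliferation libraries and 1 count in the other, and 1 to 3 counts in the 5 differentiation libraries. Esr2 (estrogen receptor beta) had 0 to 3 counts in each library. Pgr, the progesterone receptor and itself a target of estrogen receptors, had 0 to 3 counts in proliferation medium and 4 to 9 counts in differentiation medium, where its level was 0.07 to 0.14 TPM. With 3 counts as the floor, each of these levels was within a few counts of what the depth can show.

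Of the estrogen-related receptors, which bind DNA without a known steroid ligand and regulate energy metabolism, Esrra held 89.7% to 96.4% of the summed TPM of the 3 genes in every library. Esrrb and Esrrg had 12 to 56 and 17 to 59 counts. Among the retinoid receptors, Rara, Rarb and Rarg were measured in every library, Rxrb exceeded Rxra (65.5% to 74.1% of the RXR TPM was Rxrb), and Rxrg had at most 10 counts. Thra made up 97.6% to 98.9% of the thyroid hormone receptor TPM, and the remainder was Thrb. Vdr, the vitamin D receptor, had 2 to 10 counts.

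The xenobiotic receptors were not measurable or nearly so. Nr1i2 (PXR) had 2 counts in 1 library and 0 in the other 10. Nr1i3 (CAR) had 0 counts in the 6 proliferation libraries and 2 to 12 counts in the 5 differentiation libraries. Its exons overlap those of Tomm40l on the opposite strand over 74.8% of their length, and the strand setting of the counting is not given in the sources used here, so reads of the 2 genes cannot be told apart. Their target list gave little signal, since Abcb1a, Cyp2b10 and Cyp3a11 never exceeded 3 counts and only Cyp3a13 was tested. Cyp3a13 was called higher in differentiation medium, by 3.09 on the log2 scale in EtOH and 3.52 in 4HBP cultures. It was not called with 4HBP in differentiation medium. The summed TPM of the list was at most 0.1 in proliferation and 0.99 in differentiation medium. Of the PPARs, fatty acid sensors, Ppard was the main form (18.2 to 27.4 TPM), Ppara reached 0.53 to 2.58 TPM, and Pparg had 0 to 13 counts. Nr1h3 (LXR alpha) was at 1.08 to 2.98 TPM, and the bile acid receptor Nr1h4 (FXR) had at most 2 counts.

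All 4 clock receptors were present in both media. Nr1d1 and Nr1d2 (REV-ERB alpha and beta), the repressors of the clock, were at 27.2 to 51.0 and 24.1 to 42.0 TPM, and Rora and Rorb, the activators that bind the same element, at 2.42 to 21.7 and 8.13 to 15.8 TPM. Of the NR2 orphans, Nr2e1, Nr2c1 and Nr2c2 (the testicular receptors), Nr2f2 (COUP-TFII) and Nr2f6 were present in both media. In the last group, only Nr6a1 reached 1 TPM, in differentiation medium, and Nr5a2 had 0 to 5 counts.

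Receptor transcripts differed between the media about as often in EtOH cultures as genes at large. In EtOH cultures, 19 of the 30 receptors that passed the filter on low counts were called at an adjusted p under 0.05 (edgeR's quasi-likelihood test), against 62.9% of all 15308 genes tested. Of these, 14 were higher in differentiation medium, where 31.4% of all genes were, and 5 were lower, where 31.5% of all genes were. The median log2 difference was 0.27 over the receptors and 0.02 over all genes. In 4HBP cultures, 23 of 29 receptors were called (67.4% of all genes), 14 higher (33.3% of all genes) and 9 lower (34.1%). The 19 receptors called in EtOH cultures were all called in 4HBP cultures, in the same direction, where they made up 82.6% of the calls. The same overlap was not computed over all genes, so it is not read as a trait of the receptors. In bulk libraries such as these, fewer cells of a type and less RNA per cell cannot be told apart. The markers of NSCs, dividing cells, glia and neurons moved between the media as well. Of the 8 NSC markers in EtOH cultures, 7 were lower in differentiation medium and 1 was higher. Hes5 changed by −3.45 and Nes by −2.56 on the log2 scale. All 6 proliferation markers were lower. Of the 8 oligodendrocyte lineage markers 7 were higher and none was lower. Astrocyte and neuron markers went both ways, with 5 of 8 higher and 2 lower on each list. Their part in the receptor differences was not tested.

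**Figure D2:**
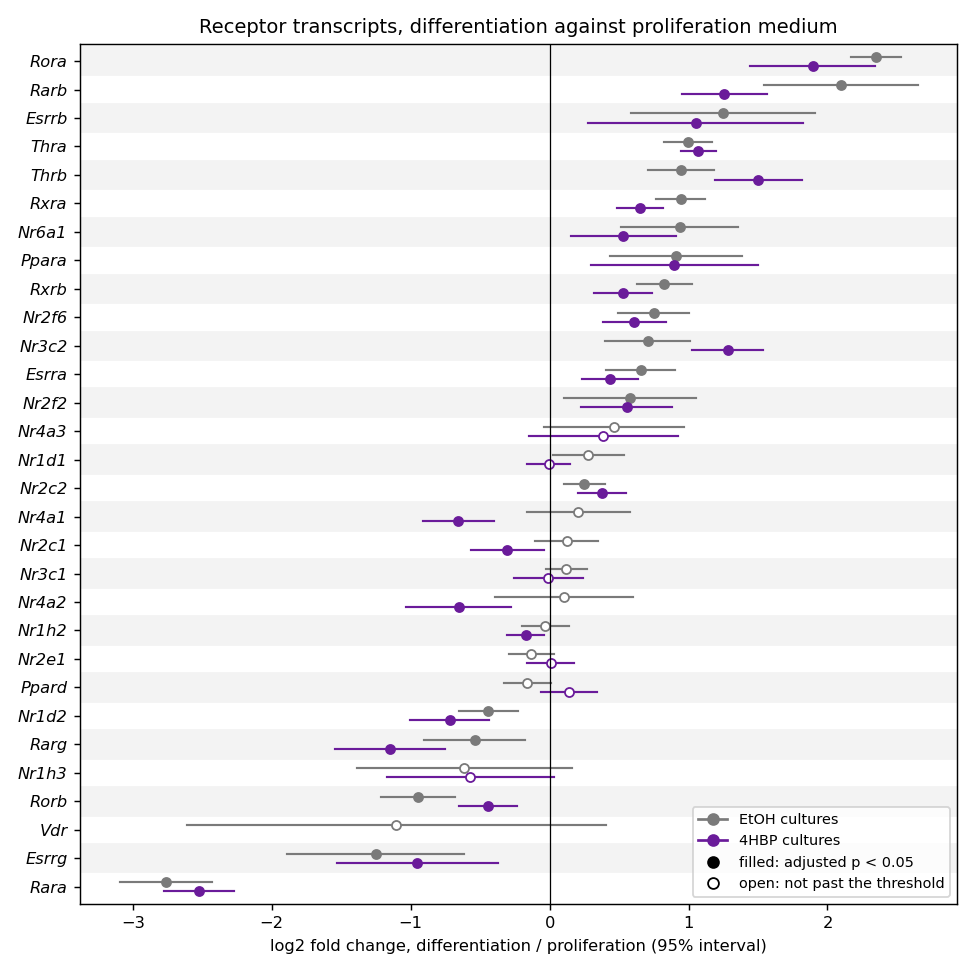
Log2 fold change of each receptor between differentiation and proliferation medium, in EtOH cultures (grey) and 4HBP cultures (purple), with the 95% interval of the edgeR fit and filled points for an adjusted p under 0.05. Rara lay at −2.76 and −2.53 and Rora at 2.35 and 1.89, at the 2 ends of the range.

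The largest change was in the retinoic acid receptors, which turn retinoic acid into transcription of their targets. Rara (chromosome 11, 98927818 to 98974942, GRCm38, plus strand) was at 37.0, 34.8 and 40.8 normalized CPM in the EtOH libraries of proliferation medium and at 6.48 and 4.55 in those of differentiation medium. The groups did not overlap, and Rara fell by 2.76 on the log2 scale (SE 0.15, edgeR, adjusted p = 5.08e-07). Rarb (chromosome 14, 16430839 to 16819156, minus strand) went the other way. It stood at 1.76, 1.97 and 3.47 normalized CPM in proliferation and at 9.96 and 10.5 in differentiation medium, a rise of 2.10 (SE 0.24, edgeR adjusted p = 6.46e-05). Rarg was lower in differentiation medium, by −0.54 in EtOH and −1.15 in 4HBP cultures. As shares of the summed TPM of the 3 genes, Rara made up 79.7% to 80.9% in the EtOH libraries of proliferation medium and 19.4% to 30.5% in those of differentiation medium, while Rarb made up 4.47% to 6.76% and 50.6% to 53.3%. In the 4HBP libraries, the share of Rara was 68.3% to 72.4% in proliferation and 26.5% to 32.4% in differentiation medium. The exons of Rarb overlap those of Top2b on the opposite strand over 34.1% of their length, with the same limit as for Nr1i3.

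**Figure D3:**
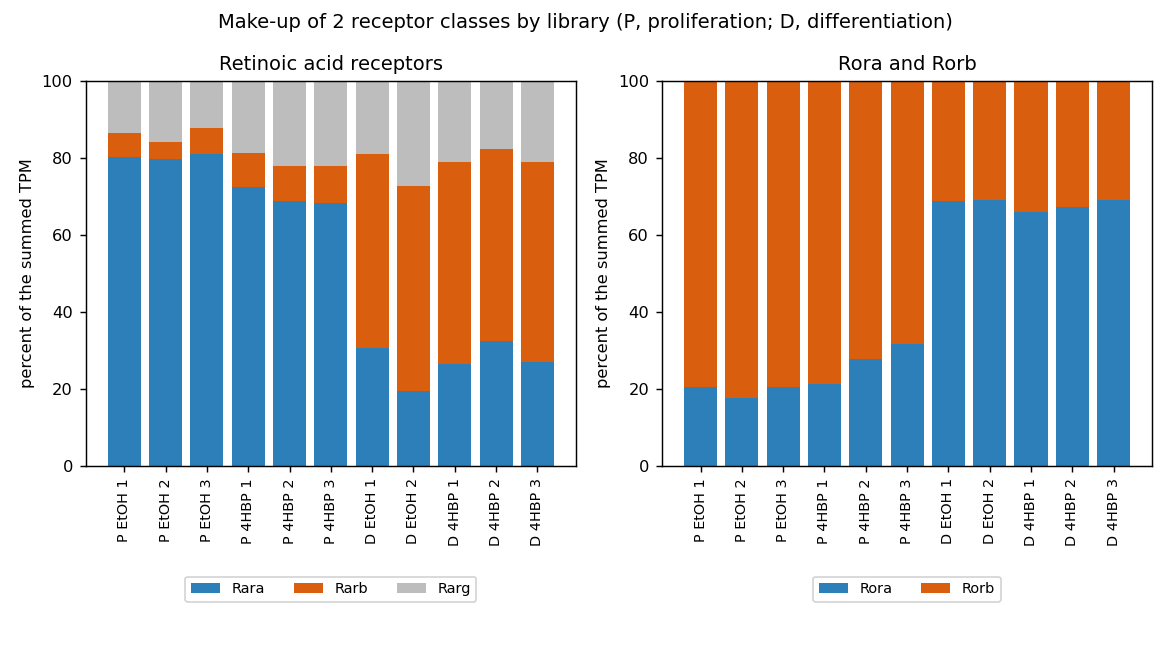
Share of each gene in the summed TPM of the retinoic acid receptors (left) and of Rora and Rorb (right), 1 bar per library. Rara held at least 68.3% in every proliferation library and at most 32.4% in every differentiation library, and Rorb gave way to Rora as the larger part in the same way.

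Rarb is known as a target of its own receptor family through a direct repeat in its promoter. The sequence is shown because it carries that repeat. It is the RefSeq promoter window (GRCm38.p6, 250 bases before to 50 after the start site), printed 5′ to 3′ with the matched repeat in capitals, and 41 of the 45 receptors have such windows, 61 in all.

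Rarb, chr14:16575427-16575726, minus strand: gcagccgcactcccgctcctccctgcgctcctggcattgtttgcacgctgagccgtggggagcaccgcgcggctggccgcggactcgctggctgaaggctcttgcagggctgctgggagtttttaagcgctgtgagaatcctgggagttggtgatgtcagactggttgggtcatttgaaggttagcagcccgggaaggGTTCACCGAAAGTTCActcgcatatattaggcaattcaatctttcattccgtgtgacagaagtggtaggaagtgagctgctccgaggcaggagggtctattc

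A search on both strands for GTTCA, 6 bases of any kind and GTTCA again found 1 match in this window, starting 52 bases before the start site. The same pattern was in 25 of 32851 promoter windows (0.0761%). The simpler receptor site AGGTCA was in 12 of the 61 receptor windows, and in 16.3% of all windows. The counts are per gene and do not show which start site of Rarb was used.

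Rora and Rorb, the ROR receptors, also exchanged places. Rora (chromosome 9, 68653786 to 69388246, plus strand) rose from 19.0, 17.02 and 19.7 normalized CPM in the EtOH libraries of proliferation medium to 93.3 and 95.1 in those of differentiation medium (log2 change 2.35, SE 0.08, edgeR adjusted p = 4.38e-08). Rorb (chromosome 19, 18930605 to 19111196, minus strand) was at 94.8, 81.2 and 111 normalized CPM in proliferation and at 49.9 and 48.9 in differentiation medium, lower by −0.95 (SE 0.12, edgeR adjusted p = 0.000104). Rora accounted for 17.4% to 31.6% of the TPM of this pair in the 6 proliferation libraries and for 66.0% to 69.1% in the 5 differentiation libraries. Nr1d2 was lower in differentiation medium, by −0.44 (SE 0.09), and Nr1d1 had a log2 difference of 0.28 (95% interval 0.02 to 0.53, edgeR adjusted p = 0.0547). Of the 15 genes of the core clock and its output, 6 were higher (Npas2 by 3.71 and Per1 by 1.40 on the log2 scale) and 6 lower (Ciart by −1.49), with a median of 0.19 against 0.02 over all genes.

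Both thyroid hormone receptors were higher in differentiation medium. Thra stood at 319, 312 and 273 normalized CPM in the EtOH libraries of proliferation medium and at 614 and 583 in those of differentiation medium (log2 change 1.00, SE 0.08, edgeR adjusted p = 4.4e-06). Thrb (chromosome 14, 17660261 to 18038090, plus strand) stood at 11.3, 13.6 and 12.5 and at 24.2 and 23.6 (log2 change 0.95, SE 0.10, edgeR adjusted p = 4.46e-05). In EtOH cultures 3 of 6 genes on a list of thyroid hormone receptor targets were higher, Dio3 (the deiodinase that inactivates thyroid hormone) with a log2 change of 8.71, Hr (a thyroid hormone receptor corepressor) of 3.56 and Klf9 of 2.48, and Me1 and Thrsp were lower. Every proliferation library had Dio3 at or under 3 counts, so its fitted change depends on the prior count.

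The RXR partners Rxra and Rxrb rose by 0.94 (SE 0.08) and 0.82 (SE 0.09) on the log2 scale in EtOH cultures. Rxra was at 18.5, 20.1 and 19.6 normalized CPM in proliferation and at 36.8 and 37.4 in differentiation medium. Ppara rose by 0.91 (SE 0.21) and Nr6a1 (GCNF, an orphan repressor of pluripotency genes) by 0.94 (SE 0.19). Nr6a1 was at 2.52, 2.27 and 2.36 normalized CPM in proliferation and at 4.69 and 4.46 in differentiation medium. Esrrb stood at 0.878, 0.691 and 0.794 and at 1.90 and 1.83, and was higher by 1.24 (SE 0.29). Esrrg stood at 2.88, 2.76 and 2.08 and at 1.19 and 0.959, and was lower by −1.25 (SE 0.28). The groups of these 3 genes did not overlap, although Esrrb and Esrrg had fewer than 60 counts in each library, and Esrra was higher by 0.66 (SE 0.11). Nr3c2 rose by 0.71 (SE 0.14), Nr2f6 by 0.75 (SE 0.11), Nr2f2 by 0.58 (SE 0.21) and Nr2c2 by 0.25 (SE 0.07). Of these, the exons of Nr2f6 overlap Ocel1 over 54.4% and those of Nr2c2 overlap Mrps25 over 30.7% of their length on the opposite strand.

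The receptors that were not called between the media in EtOH cultures included some of the most abundant. Nr3c1 stood at 92.8, 93.8 and 87.4 normalized CPM in proliferation and at 96.7 and 101 in differentiation medium, a log2 difference of 0.12 with a 95% interval of −0.03 to 0.27 (edgeR adjusted p = 0.143). Nr1h2 differed by −0.03 (95% interval −0.20 to 0.14), Nr2e1 by −0.13 (−0.29 to 0.03) and Ppard by −0.16 (−0.33 to 0.01). The NR4A genes differed by 0.21 (Nr4a1), 0.10 (Nr4a2) and 0.46 (Nr4a3), none of them past the threshold. In 4HBP cultures Nr4a1 (−0.66), Nr4a2 (−0.65), Nr2c1 (−0.30) and Nr1h2 (−0.17) were called lower in differentiation medium in addition.

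The counts on the pathway lists stand beside the 31.4% of all genes that were higher and the 31.5% that were lower in differentiation medium. Of 13 glucocorticoid receptor targets, 9 were higher in differentiation medium in EtOH cultures and Fkbp5 was lower, with a median of 1.58 against 0.02 over all genes. The metallothioneins Mt1 (2.61) and Mt2 (2.82), Klf9 (2.48), Sgk1 (2.11) and Tsc22d3 (1.58) were among them. Of 9 LXR targets, 6 were higher (Abcg1 by 1.93 and Mylip by 1.63, a cholesterol exporter and the degrader of the LDL receptor) and Scd1 was lower. Of 24 coregulators and chaperones, 13 were lower, among them the chaperones Hsp90ab1 (−0.98) and Hsp90aa1 (−0.76), the steroid receptor co-chaperone Fkbp4 (−0.69) and the corepressor Ncor1 (−0.64), and only the coactivator Ppargc1a was higher (1.13), with a median of −0.25. Of 11 PPAR targets tested, 4 were higher and 2 lower. Of 6 retinoic acid targets tested, 2 were higher (Rarb and Dhrs3) and 2 lower, among them Nrip1. Among 22 genes of ligand supply and transport, 8 were higher, with Aldh1a1 (retinaldehyde dehydrogenase) up by 8.05 and Hsd11b1 (which regenerates active glucocorticoid) up by 2.46, and 8 were lower, with Aldh1a3 down by −4.22 and the carrier Crabp1 by −2.82. Of the estrogen targets, Ctsd was the 1 called of 3 tested. Many of these genes respond to other signals too, and the share of any receptor in their change was not tested.

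With 4HBP in proliferation medium, 3 of the 29 receptors tested were called, against 7.43% of all 14449 genes. Nr4a1 was higher (3.74% of all genes were) and Thrb and Rorb were lower (3.69% of all genes were). On simulated data the test in this medium made more false calls than its threshold allows, which bears on these calls. At an unadjusted p under 0.05 there were 10 of the 29 receptors and 3621 of the 14449 genes. The 4HBP libraries lay wholly above the EtOH libraries in normalized CPM for 9 receptors (16.1% of all genes) and wholly below for 5 (15.1%). The median log2 fold change was 0.20 over the receptors and 0.00 over all genes. In the plot of the 4HBP effect, the intervals of proliferation medium are wider than those of differentiation medium, where the biological coefficient of variation was 0.0368 against 0.117.

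**Figure D4:**
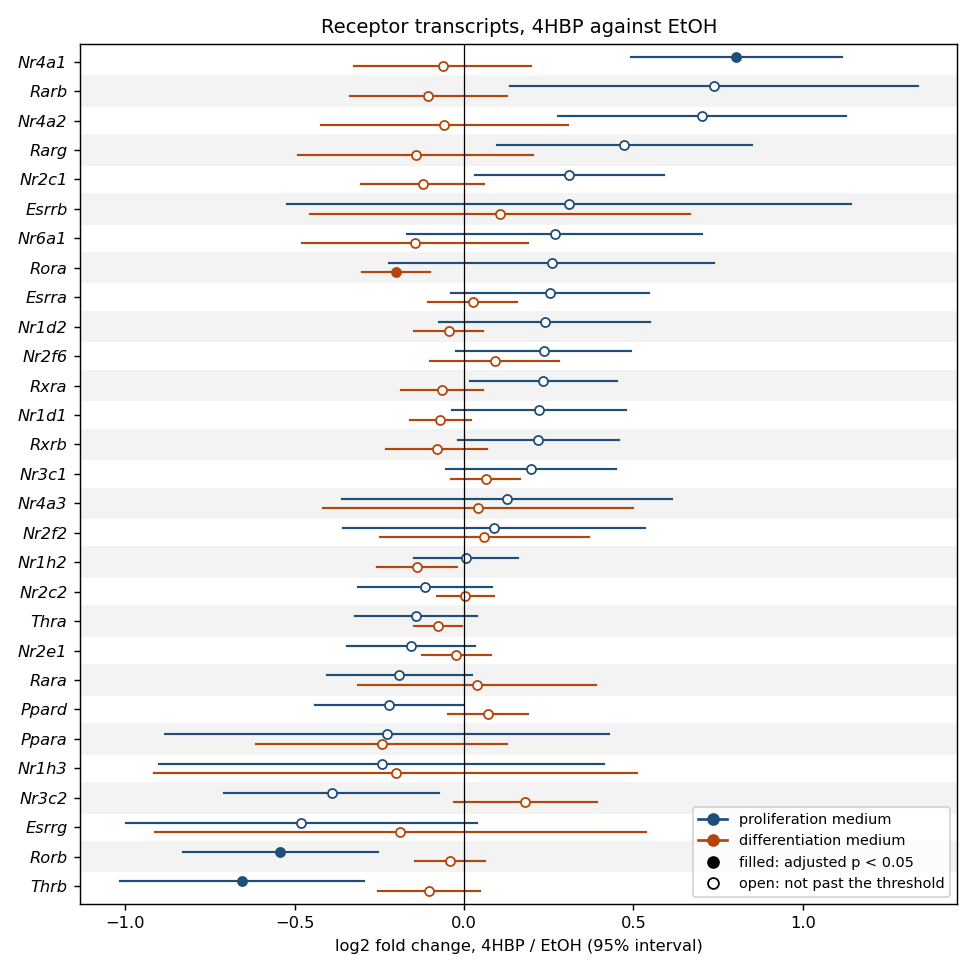
Log2 fold change of each receptor with 4HBP against EtOH in proliferation medium (blue) and differentiation medium (orange), with the 95% interval of the edgeR fit and filled points for an adjusted p under 0.05. Nr4a1 (0.80), Rorb (−0.54) and Thrb (−0.66) are filled in proliferation medium and Rora (−0.20) in differentiation medium.

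The NR4A genes encode orphan receptors that act without a classical ligand and are immediate early genes, switched on within minutes by calcium, cAMP and stress signals. Nr4a1 (Nur77; chromosome 15, 101254269 to 101274795, plus strand) was at 7.81, 9.62 and 9.82 normalized CPM in the EtOH libraries of proliferation medium and at 15.9, 14.1 and 17.6 in the 4HBP libraries. Every 4HBP library lay above every EtOH library, and the log2 fold change was 0.80 (SE 0.14, 95% interval 0.49 to 1.12, edgeR adjusted p = 0.0137). The adjusted p was 0.0697 without EtOH replicate 1 and 0.0582 without EtOH replicate 2, at log2 fold changes of 0.70 and 0.85, and 0.0138 without 4HBP replicate 3.

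Nr4a2 (Nurr1; chromosome 2, 57106830 to 57124003, minus strand) had 4.44, 4.34 and 6.002 normalized CPM with EtOH and 7.25, 7.21 and 9.60 with 4HBP. Its groups did not overlap either, and its log2 fold change of 0.70 (SE 0.19) missed the threshold (edgeR adjusted p = 0.0541). It was called without EtOH replicate 3 (0.0404), with DESeq2 (adjusted p = 0.0216), without the filter on low counts (0.0215) and with all 11 libraries in 1 fit (0.0225). Nr4a3 (Nor1; chromosome 4, 48045153 to 48086447, plus strand) had 2.34, 3.16 and 2.63 normalized CPM with EtOH and 2.55, 2.95 and 3.37 with 4HBP, groups that overlapped, with a log2 fold change of 0.13 (95% interval −0.36 to 0.61).

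**Figure D5:**
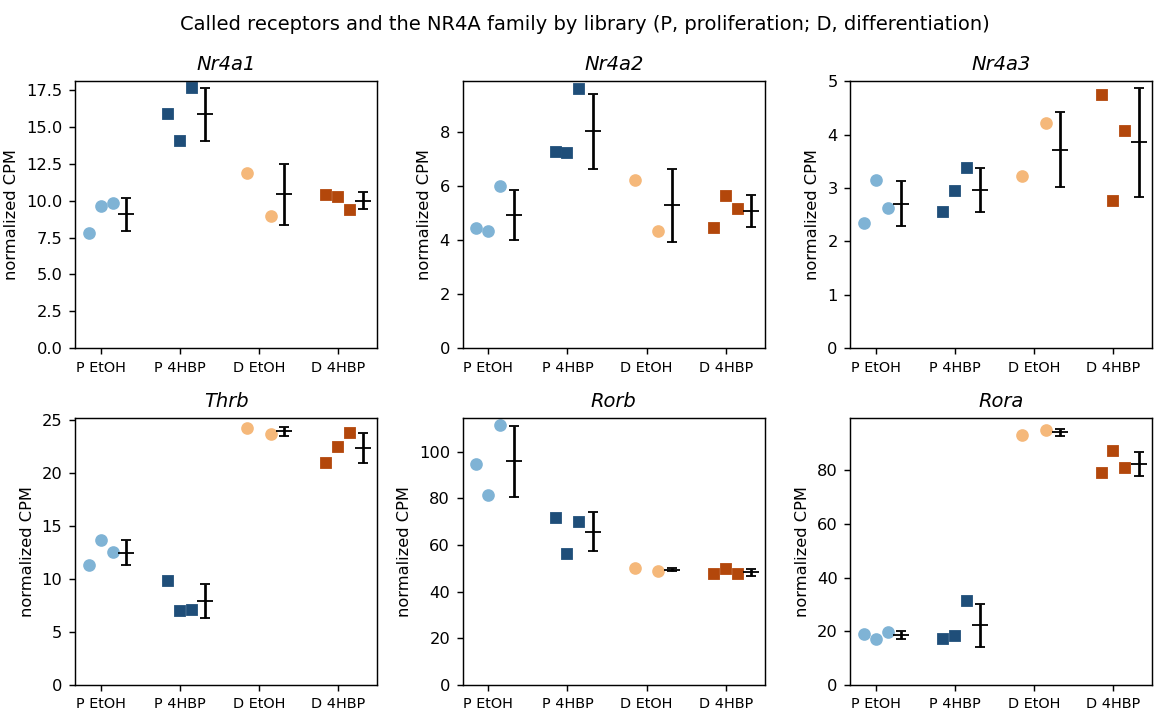
Normalized CPM of the NR4A genes, Thrb, Rorb and Rora, 1 point per library, with the mean and SD of each group in black beside the points. The Nr4a1 points of 4HBP in proliferation medium lie at 14.1 to 17.6, above the 7.81 to 9.82 of EtOH, and its points in differentiation medium lie at 8.97 to 11.9.

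The promoter windows of the 3 NR4A genes are shown because the family is known to be induced through cAMP response elements. They are RefSeq windows of GRCm38.p6, 5′ to 3′, with each match to TGACG, the core of that element, in capitals. On the opposite strand the match reads CGTCA.

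Nr4a1, chr15:101266596-101266895, plus strand: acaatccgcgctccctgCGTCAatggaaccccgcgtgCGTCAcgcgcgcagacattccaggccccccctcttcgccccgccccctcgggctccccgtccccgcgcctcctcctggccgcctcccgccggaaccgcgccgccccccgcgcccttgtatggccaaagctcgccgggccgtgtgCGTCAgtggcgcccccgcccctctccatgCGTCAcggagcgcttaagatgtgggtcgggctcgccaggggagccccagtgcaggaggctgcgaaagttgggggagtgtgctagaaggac

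Nr4a2, chr2:57123954-57124253, minus strand: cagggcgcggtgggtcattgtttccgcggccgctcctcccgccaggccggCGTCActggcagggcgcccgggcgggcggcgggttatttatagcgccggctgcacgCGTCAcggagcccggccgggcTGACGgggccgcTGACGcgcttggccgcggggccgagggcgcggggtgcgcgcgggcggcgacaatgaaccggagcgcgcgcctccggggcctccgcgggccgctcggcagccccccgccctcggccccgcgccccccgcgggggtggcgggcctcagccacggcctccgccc

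Nr4a3, chr4:48045055-48045354, plus strand: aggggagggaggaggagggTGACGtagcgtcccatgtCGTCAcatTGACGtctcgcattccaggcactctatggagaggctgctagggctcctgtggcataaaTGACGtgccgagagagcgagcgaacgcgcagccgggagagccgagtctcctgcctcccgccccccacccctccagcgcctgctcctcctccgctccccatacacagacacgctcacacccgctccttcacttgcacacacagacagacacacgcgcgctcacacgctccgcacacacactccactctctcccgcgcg

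Each window held 4 matches, in Nr4a1 from 233 to 40 bases, in Nr4a2 from 200 to 111 bases and in Nr4a3 from 231 to 147 bases before the start site. At least 1 match was in 20.81% of the 32851 promoter windows and in 17 of the 61 receptor windows, and at least 4 matches were in 76 windows (0.231%). Nr4a3 thus had as many matches as Nr4a1 and Nr4a2. Of the other called receptors, Thrb had 1 match in 1 of 2 windows, and the windows of Rorb and Rora had none.

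Thrb, the thyroid hormone receptor of the hypothalamus, retina and inner ear that also acts in maturing neural cells, was at 11.3, 13.6 and 12.5 normalized CPM with EtOH and at 9.75, 6.92 and 7.07 with 4HBP in proliferation medium. The groups did not overlap, and Thrb fell by 0.66 on the log2 scale (SE 0.16, edgeR adjusted p = 0.0412). Its call was lost without any of 5 of the 6 libraries. The adjusted p was 0.121 without 4HBP replicate 2, 0.0575 without 4HBP replicate 3, and 0.108, 0.166 and 0.082 without EtOH replicates 1, 2 and 3. Thra, the main thyroid hormone receptor, stood at 319, 312 and 273 with EtOH and 262, 280 and 276 with 4HBP, and its log2 fold change was −0.14 (95% interval −0.32 to 0.04, edgeR adjusted p = 0.313).

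Rorb, which in the brain is known as a marker of layer IV neurons, was at 94.8, 81.2 and 111 normalized CPM with EtOH and 71.5, 56.0 and 69.7 with 4HBP. The groups did not overlap, and Rorb fell by 0.54 (SE 0.13, edgeR adjusted p = 0.0375). The adjusted p was 0.0508 and 0.102 without 4HBP replicates 1 and 2, 0.128, 0.0595 and 0.0835 without EtOH replicates 1, 2 and 3, and 0.0272 without 4HBP replicate 3. Several marker lists had negative medians with 4HBP in this medium. The median log2 fold change was −0.54 for astrocyte, −0.43 for proliferation, −0.32 for NSC, −0.32 for oligodendrocyte lineage and −0.03 for neuron markers. Of the 8 astrocyte markers, 4 fell (Gja1 by −0.85, Aldoc by −0.70, Gfap by −0.68 and Aqp4 by −0.66) and none rose, where 3.69% of all genes were lower. Their summed level was 3430 to 4021 TPM with EtOH and 2559 to 3146 TPM with 4HBP, and 6 fell without 4HBP replicate 3. The 6 proliferation markers summed to 382 to 405 TPM with EtOH and 227 to 366 TPM with 4HBP, and none passed the test. Of the 8 NSC markers 1 fell and none rose, with a summed level of 4640 to 4904 TPM with EtOH and 4196 to 4561 TPM with 4HBP. None of the 8 oligodendrocyte lineage or the 8 neuron markers passed the test. The oligodendrocyte lineage markers summed to 2127 to 2643 TPM with EtOH and 1455 to 2251 TPM with 4HBP. The neuron markers summed to 549 to 618 TPM with EtOH and 486 to 553 TPM with 4HBP. The part of these markers in the fall of Thrb and Rorb was not tested.

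The remaining receptors were not called with 4HBP in proliferation medium, with effects that ran from −0.48 (Esrrg) to 0.74 (Rarb) on the log2 scale. Rarb stood at 1.76, 1.97 and 3.47 normalized CPM with EtOH and at 3.92, 3.82 and 4.26 with 4HBP, without overlap (95% interval 0.13 to 1.34, edgeR adjusted p = 0.127). Rarg stood at 5.66, 6.17 and 5.90 and at 6.47, 9.33 and 8.81, again without overlap (log2 fold change 0.47, edgeR adjusted p = 0.12). Without EtOH replicate 3, in which Rarb was highest among the controls, the called receptors were Nr4a1, Nr4a2 and Rarb. Nr3c1 had 125 normalized CPM in 4HBP replicate 3 against 98.0 and 91.3 in the other 4HBP libraries and 87.4 to 93.8 with EtOH, and its log2 fold change was 0.20 (95% interval −0.05 to 0.45). Nr1d2 and Rora were also highest in that library, at 114 and 31.3 normalized CPM. For Nr1h2 the effect was 0.01 (95% interval −0.15 to 0.16). Esr1 and Esr2 had at most 3 counts in each 4HBP library of this medium, and Pgr had 0.

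The pathway lists are read beside the 3.74% of all genes that were higher and the 3.69% that were lower with 4HBP in proliferation medium. Of 9 LXR targets, 4 fell (the desaturases Scd1 by −1.01 and Scd2 by −0.60, Lpcat3 by −0.42 and Srebf1 by −0.34) and none rose, with a median of −0.34 against 0.00 over all genes, and without 4HBP replicate 3 5 fell and 1 rose. Of 10 PPAR targets tested, 3 fell, among them the fatty acid oxidation genes Acadvl (−0.40) and Acadm (−0.27), and none rose, with a median of −0.29. Of 5 thyroid hormone targets tested Thrsp fell, by −0.88, and of 21 ligand supply genes 2 fell, among them Dio2, the deiodinase that activates thyroid hormone (−0.48), and 1 rose. Of 6 retinoic acid targets tested, 1 rose and none fell, with a median of −0.22. Of 24 coregulators, Ppargc1a (0.50) and Ncoa3 (0.35) rose. None of 12 glucocorticoid targets and none of 3 estrogen targets tested was called, with medians of 0.08 and 0.02, and of 15 clock genes Hlf fell, by −0.34.

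In differentiation medium, 1 of the 29 receptors tested was called with 4HBP, against 2.55% of all 15484 genes, and it was lower, as were 1.29% of all genes. Rora stood at 93.3 and 95.1 normalized CPM with EtOH and at 78.8, 87.2 and 80.9 with 4HBP, without overlap, and fell by 0.20 (SE 0.05, edgeR adjusted p = 0.0329). It was not called by DESeq2 (0.0545), by limma (0.309 to 0.374) or with all 11 libraries in 1 fit, nor without 4HBP replicate 1 (0.0995) or 3 (0.0882) or EtOH replicate 1 (0.206) or 2 (0.185). Without either EtOH replicate that group is 1 library, which is then assumed to vary like the 4HBP libraries. On simulated data the test made more false calls than its threshold allows in every comparison, most of all in this one. This bears on each call in this medium. The 4HBP libraries lay wholly above for 1 receptor, Nr3c2 (17.4% of all genes), and wholly below for 3, Nr1d1, Rora and Nr1h2 (15.5%). The other receptors lay between −0.24 (Ppara) and 0.18 (Nr3c2), with a median of −0.06 over the receptors and 0.00 over all genes. For the abundant receptors the intervals were narrow, −0.15 to −0.01 for Thra, −0.04 to 0.16 for Nr3c1 and −0.26 to −0.02 for Nr1h2, and none of these was called. Nr4a1 stood at 11.9 and 8.97 with EtOH and at 10.4, 10.2 and 9.39 with 4HBP.

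The pathway lists of this medium stand beside the 1.26% of all genes that were higher and the 1.29% that were lower with 4HBP. Of the pathway genes, the glucocorticoid target Sult1a1 (−0.66) and the cholesterol exporter Abca1 (−0.25), an LXR target, fell. The thyroid hormone targets Dio3 (0.87), Me1 (0.21) and Hr (0.20) rose, 3 of 5 tested, with a median of 0.20. Aldh1a1 (0.16) and the fatty acid carrier Fabp7 (0.23) rose among the 20 ligand supply genes, which also count Dio3. No coregulator, PPAR, retinoic acid, estrogen or clock gene on the lists passed the test.

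The 4HBP effect differed between the media for 1 of 30 receptors, against 4.49% of all 15920 genes tested. That receptor was Nr4a1, whose log2 fold change was larger in proliferation medium by 0.86 (SE 0.20, edgeR adjusted p = 0.031), with effects of 0.80 and −0.06. The adjusted p without 1 library ranged from 0.0254 to 0.2. It passed the threshold without EtOH replicate 3 or any 4HBP replicate of proliferation medium or EtOH replicate 2 of differentiation medium, and missed it without each of the other 6 libraries. For Thrb the difference of the effects was −0.56 (edgeR adjusted p = 0.108), for Rorb −0.51 (0.105), for Rarb 0.83 (0.128) and for Nr4a2 0.76 (0.158), so these were not shown to differ between the media. For Thra it was −0.07 (95% interval −0.28 to 0.13) and for Nr3c1 0.13 (−0.19 to 0.44). On simulated data the test of these differences also made more false calls than its threshold allows.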

How the data were processed

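Stranded mRNA libraries of 11 NSC cultures had been sequenced. The authors trimmed the reads with cutadapt and quantified them with RSEM 1.3.0 and Bowtie2 2.2.9 against mm10 (GRCm38) with GENCODE vM17, and deposited for each gene TPM, FPKM (not used here) and the expected count, with transcript lengths. The strand setting is not given in the sources used here. Symbols and positions came from GENCODE vM21 (99.82% of identifiers matched) and promoters from RefSeq. The deposited expected counts were rounded and filtered with filterByExpr. TMM factors and the quasi-likelihood fits (glmQLFit and glmQLFTest of edgeR 4.0.16, R 4.3.3) were computed within the groups compared, with Benjamini-Hochberg adjustment over all genes and a threshold of 0.05. Intervals are 95% t intervals of that fit. The fits were tested on simulated data, where false genes made up more of the calls than the threshold of 0.05 allows in every comparison, most of all with 4HBP in differentiation medium. limma 3.58.1, DESeq2 1.42.0 and other settings were alternatives.

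Receptors described sample by sample are those called with 4HBP, the 10 with the highest mean TPM in EtOH cultures of either medium, the 10 called ones with the largest change between media, and Esr1, Esr2 and Pgr. Others were added after their values were seen. Some list genes are not reported here. The members and gene lists were chosen with earlier results of these data known.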

Additional observations from a re-analysis of the deposited data

Results flagged for a closer look

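The effect of 4HBP on Nr4a1 differed between the media by the interaction test, by 0.86 on the log2 scale (edgeR adjusted p = 0.031). Every 4HBP library lay above every EtOH library in proliferation medium, and the groups overlapped in differentiation medium. The call was lost without some of the libraries, with limma and with a replicate block. On simulated data this test made more false calls than its threshold allows. Nr3c2, the mineralocorticoid receptor, had log2 fold changes of opposite sign in the 2 media, −0.39 and 0.18, and neither was called (edgeR adjusted p = 0.126 and 0.403). It stood at 7.81, 7.40 and 6.80 normalized CPM with EtOH and at 6.07, 5.27 and 5.43 with 4HBP in proliferation medium, and at 12.9 and 10.97 with EtOH and 13.5, 14.2 and 12.9 with 4HBP in differentiation medium, without overlap in either. The difference of its effects was −0.58 (edgeR adjusted p = 0.0727), which missed the threshold. In differentiation medium its lowest 4HBP value exceeded its highest EtOH value by little.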

How the results depend on the processing

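Library totals without TMM, or voom weights, left the number of receptors called with 4HBP in proliferation medium at 3. DESeq2 and no filter gave 4, and limma with the study's threshold gave 3 (Nr4a1, Nr4a2 and Rarb). limma on log2(CPM+1) of all genes gave 0 receptors, limma on log2(CPM+0.1) 0, limma on log2(CPM+1) with the filter 1, and all 11 libraries in 1 fit 8 (5 higher and 3 lower). Leaving out 1 library gave 0 to 3. In differentiation medium, DESeq2, limma on log2(CPM+1) with or without the filter, limma on log2(CPM+0.1), the study's threshold and all 11 libraries in 1 fit each gave 0, and leaving out 1 library 0 to 1. For the difference of the effects, DESeq2 and voom gave 2, no filter 5, the 3 limma settings 0 each, and leaving out 1 library 0 to 3. Genes called over the whole table moved as well. In proliferation medium they went from 1074 to 35, 111 or 438 with limma, 653 with the study's threshold, 1623 with DESeq2 and 2668 with all libraries in 1 fit. In differentiation medium they went from 395 to 0 with limma or all libraries in 1 fit, 71 with the study's threshold and 778 without the filter. For the difference they went from 715 to 179, 291 or 350 with limma and 1616 without the filter. The cause was not tested.

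With a replicate block, 2 receptors were called in proliferation medium (Nr4a1 and Rorb, with 534 genes in all), 1 in differentiation medium (745 genes in all), 20 and 21 between the media, and 0 for the difference of the effects (156 genes in all), where Nr4a1 had an adjusted p of 0.143. The deviations of libraries with the same number correlated at -0.0612 to 0.018, and those with different numbers at -0.0432 to 0.0481. As deviations from means of 2 or 3 libraries, these values cannot decide whether the numbers pair the libraries.

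The counts called between the media stayed within 15 to 21 in EtOH and 20 to 26 in 4HBP cultures, and those of present receptors within 19 to 28 and 23 to 28. Directions were recomputed for the receptors called with 4HBP, the NR4A genes in proliferation medium, the Nr4a1 difference and the 10 largest changes between the media in each treatment, and none reversed. They were not recomputed for the other receptors. Rescaling TPM without mt-Atp8, chosen after seeing the data, gave 24 and 26 present receptors. Receptors with fewer than 60 counts are limited by depth.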
